A study of Mus musculus with 6 samples.

Results

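The genes described here are 10 genes of the NRF2 oxidative stress response in Met-1 TripZ-200c cells: Nfe2l2, Keap1, Hmox1, Nqo1, Gclc, Gclm, Txnrd1, Srxn1, Slc7a11 and Gsr. They were chosen by symbol as known genes of the NRF2 axis and of glutathione metabolism, and all 10 of 10 were among the 43548 genes of the expression table. The parental Met-1 line comes from an advanced mammary carcinoma of an MMTV-PyMT transgenic mouse (strain FVB/nJ), and Met-1 TripZ-200c cells carry an inducible lentiviral vector from which doxycycline (Dox) drives the precursor of miR-200c. The Minus Dox group (3 libraries) received vehicle and the Plus Dox group (3 libraries) received 1 µg/mL Dox, both for 48 h, and mRNA was sequenced. Both groups carry the TripZ-200c vector, the line is a single clone, and cells with an empty vector were not analysed here, so Dox itself and the induced miR-200c cannot be told apart. The series describes the libraries of a group as biological replicates from cultures plated in parallel, so the p-values measure the spread between parallel cultures of 1 clone. In a bulk culture, fewer cells making a transcript and less of it per cell cannot be told apart.

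NRF2, the product of Nfe2l2, is a transcription factor that is bound by KEAP1 and passed to a cullin ubiquitin ligase for degradation in unstressed cells. When oxidants or electrophiles modify KEAP1, NRF2 accumulates largely without a change in its own mRNA, pairs with a small MAF protein and binds antioxidant response elements near its target genes. Its targets degrade heme, reduce quinones, make and recycle glutathione, and run the thioredoxin system, and in many carcinomas they are active without acute stress.

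Expression was given as FPKM, a value scaled to transcript length and sequencing depth, so levels can be compared between genes, but the read count behind a value is unknown. The low values placed the relative depth of the libraries between 0.920 and 1.49 times that of the first Minus Dox library. A gene was tested with limma on log2(FPKM + 0.1) if its mean over the 6 libraries was at least 1 FPKM, which 12879 genes met. A gene is said to have passed at a Benjamini-Hochberg adjusted p under 0.05 over all of them. Of the genes tested, 15.0% passed, 7.06% higher with Dox and 7.97% lower, and in 35.0% the 3 values of one group did not overlap the 3 of the other. Genes known to respond to miR-200c differed between the groups, which does not separate Dox itself from miR-200c. Zeb1, a miR-200c target and repressor of epithelial genes, fell from 41.8 ± 0.682 to 21.2 ± 2.05 FPKM (mean ± SD, n = 3 each, adjusted p = 0.000362). Zeb2 fell from 29.3 ± 1.43 to 8.29 ± 0.661 FPKM (adjusted p = 4.48e-05). Cdh1, which encodes E-cadherin, was below the filter, with 0.0419 to 0.0776 FPKM without Dox and 0.554 to 1.24 FPKM with Dox. Of 10 epithelial markers, 5 were at or above 1 FPKM (Krt18, Krt7, Epcam, Cldn3 and Esrp2) and rose, and Krt19 was at 0. The summed level of the 10 was 246 to 256 FPKM without Dox and 769 to 811 FPKM with Dox. Most of this rise was 2 keratins, Krt18 (93.2 ± 2.78 to 386 ± 19.6 FPKM) and Krt7 (45.0 ± 2.26 to 274 ± 1.13 FPKM). Cldn3 rose from 109 ± 2.08 to 121 ± 3.14 FPKM (adjusted p = 0.0342), a call that held in 1 of the 6 omissions of 1 library (adjusted p up to 0.109). All 10 mesenchymal markers were at or above 1 FPKM, and 6 of them fell (Vim, Zeb1, Zeb2, Twist1, Snai1 and S100a4). Axl rose from 564 ± 10.9 to 614 ± 15.9 FPKM (adjusted p = 0.0342), and Fn1, Cdh2 and Snai2 did not pass. The 9 with a value in every library, of which Vim and S100a4 make up most, summed to 8729.5 to 8783 FPKM without Dox and to 6481 to 6761 FPKM with Dox. Fn1 was fitted without Minus Dox 3 and Plus Dox 3, where its value is missing. This shift of the cell state moves with every difference given here, and its part in them was not tested. Of 7 macrophage markers, 2 (Cd14 and Cd68) were at or above 1 FPKM, with a sum over the 7 of 28.2 to 35.2 FPKM without Dox and 33.5 to 39.0 FPKM with Dox. Cd14 rose from 21.4 ± 1.42 to 29.1 ± 2.73 FPKM (adjusted p = 0.0171), Cd68 did not pass, and Ptprc, Csf1r and Itgam stayed near 0. Of 6 T and B cell markers, 5 were at 0. Of 5 endothelial markers Cdh5 alone was at or above 1 FPKM and did not pass. Of 4 adipocyte markers 3 were at 0, and Fabp4 fell from 12.7 ± 1.44 to 6.82 ± 1.57 FPKM (adjusted p = 0.0177). Of the 6 omissions of 1 library, the calls of Snai1 and Axl held in 1 each, that of Cd14 in 2 and that of Fabp4 in 3 (adjusted p up to 0.0965, 0.114, 0.0665 and 0.0644). The part of these markers in the results was not tested either.

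The sequences through which miR-200c could pair with these transcripts are shown first, followed by the motif of the NRF2 and small MAF pair in their promoters. RefSeq (GRCm38.p6) places mature miR-200c-3p at chr6:124718324-124718346 on the minus strand, and miR-200a-3p, a relative with another seed that is not made by this vector, at chr4:156054911-156054932 on the minus strand. Capitals mark the seed, bases 2 to 8.
mmu-miR-200c-3p: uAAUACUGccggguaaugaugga
mmu-miR-200a-3p: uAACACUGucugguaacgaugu
The match to the miR-200c seed, CAGTATT, stood in the longest annotated 3′ UTR of 2 of the 10 genes, Srxn1 and Slc7a11, once in each. Over the genes tested with an annotated 3′ UTR, 16.9% of 10812 held it. The site of Srxn1 is at chr2:152109618-152109624 on the plus strand, in a 3′ UTR of 2184 bases, and that of Slc7a11 is at chr3:50367932-50367938 on the minus strand, in one of 7364 bases (GENCODE, GRCm38). Capitals mark the match.
Srxn1 site: actgactaacaCAGTATTgtgtcaacagc
Slc7a11 site: ttccccacaaaCAGTATTtcaaaagttca
The 3′ UTRs of Nfe2l2, Keap1, Hmox1, Nqo1, Gclc, Gclm, Txnrd1 and Gsr held no CAGTATT. The match to the miR-200a seed, CAGTGTT, which 22.8% of those 10812 UTRs held, stood once in Gclc and at 2 places in Slc7a11.

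RefSeq promoter windows, from 250 bases before to 50 after a start site, were matched for 7 of the 10 genes (Nfe2l2, Keap1, Nqo1, Gclm, Txnrd1, Srxn1 and Slc7a11). Hmox1, Gclc and Gsr had no window, so the search says nothing of them. Sequence outside the windows was not searched for any gene. The core of the antioxidant response element was searched as TGACNNNGC on both strands, and 12.4% of all 32851 windows held it, or 16.8% of the 8548 tested genes with a window. It stood in a window of 4 of the 7 genes. A form with G in place of that C, TGAGNNNGC, was added after the sequences had been seen. It was held by 17.6% of all windows, or 23.0% of the tested genes with a window, and stood in the windows of Srxn1, at 2 places, and Slc7a11. Of the TGAGNNNGC matches, only that of Srxn1 45 bases before the start is printed below. The others, 158 bases before the start in Srxn1 and 97 in Slc7a11, are not printed. Capitals mark the match in the stretches below, read on the strand of the gene, and a match on the other strand appears as its reverse complement.
Nfe2l2, chr2:75704879-75704913, minus strand, 240 bases before the start: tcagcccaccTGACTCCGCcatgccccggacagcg
Gclm, chr3:122245407-122245447, plus strand, 134 bases before the start: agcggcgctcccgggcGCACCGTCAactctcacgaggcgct
Txnrd1, chr10:82859098-82859138, plus strand, 92 bases before the start of 1 of its 3 windows: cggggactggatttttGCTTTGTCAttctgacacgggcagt
Srxn1, chr2:152105536-152105573, plus strand, 28 bases after the start: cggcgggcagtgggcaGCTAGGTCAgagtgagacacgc
Srxn1, chr2:152105463-152105503, plus strand, TGAGNNNGC, 45 bases before the start: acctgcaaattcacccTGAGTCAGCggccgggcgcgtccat
These matches are letters in a window, and binding was not measured.

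Of the 10 genes, 9 passed the filter on low values and 1 of these, Hmox1, passed the test, lower with Dox. That is 11.1% of the members tested against the 15.0% of all genes. By limma 0 members were higher, with 2 higher and 3 lower at an unadjusted p under 0.05, and an unmoderated linear model per gene likewise called 1 lower and 0 higher. The median log2 fold change of the 9 was -0.05, beside 0.00 over all genes tested, and the median size of the change was 0.0963 beside 0.128. In 6 of the 9 the groups did not overlap, 3 with all Plus Dox values above (Keap1, Slc7a11 and Gsr) and 3 with all below (Hmox1, Gclc and Txnrd1), and 35.0% of all genes did the same.

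**Figure D1:**
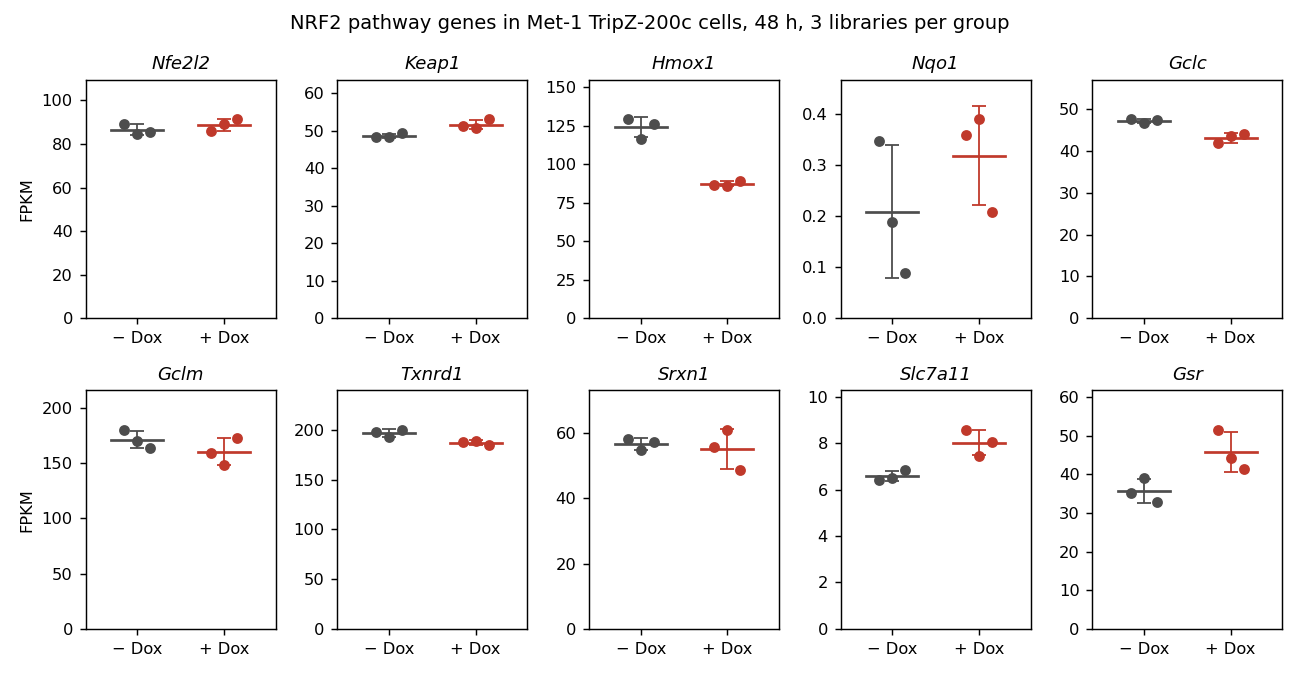
FPKM of the 10 NRF2 pathway genes in each of the 3 Minus Dox (grey) and 3 Plus Dox (red) libraries, with the mean (line) and SD (bars) and a separate axis from 0 for each gene. Hmox1 lay between 116.7 and 129 FPKM without Dox and between 86.0 and 89.4 FPKM with Dox, while Nqo1 stayed under 0.4 FPKM in every library.

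The levels spanned a wide range and kept nearly the same order in both groups. By the mean over the 6 libraries Txnrd1 was highest at 192 FPKM, above 94.2% of the genes tested, followed by Gclm (166 FPKM), Hmox1 (106 FPKM), Nfe2l2 (87.6 FPKM), Srxn1 (56.0 FPKM), Keap1 (50.2 FPKM), Gclc (45.1 FPKM) and Gsr (40.7 FPKM). Slc7a11, at 7.31 FPKM, stood above 23.2% of the genes tested, and Nqo1 came last with 0.263 FPKM. Without Dox no pair of neighbours in this order overlapped. With Dox 3 pairs did: Hmox1 with Nfe2l2, Srxn1 with Keap1, and Gclc with Gsr. Hmox1 was above Nfe2l2 in the 3 Minus Dox libraries and in 1 of the 3 Plus Dox libraries.

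Nfe2l2 (chr2:75675513-75704641, minus strand, GRCm38), which encodes NRF2 itself, read 89.4, 84.5 and 85.6 FPKM in Minus Dox libraries 1, 2 and 3, and 85.8, 89.0 and 91.3 FPKM in Plus Dox libraries 1, 2 and 3. The groups overlapped. The log2 fold change, always given as Plus Dox minus Minus Dox on log2(FPKM + 0.1), was 0.04 (SE 0.0415, 95% interval -0.06 to 0.13, adjusted p = 0.618). Keap1 (chr9:21229730-21239361, minus strand), the sensor that holds NRF2 for degradation, read 48.4, 48.4 and 49.3 FPKM without Dox and 51.2, 50.8 and 53.0 FPKM with Dox. Every Plus Dox value was above every Minus Dox value, but the shift was 6.15% and did not pass (log2 fold change 0.09, SE 0.0402, interval -0.01 to 0.18, adjusted p = 0.210). Of its transcript, 14.2% is shared with Gm16754 on the other strand. The ratio of Nfe2l2 to Keap1 was 1.78 ± 0.0626 without and 1.72 ± 0.0381 with Dox.

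Among 16 tested genes of a list of 18 NRF2 regulators and partners, 3 rose and none fell by limma (none lower at an unadjusted p under 0.05 or by the unmoderated model), and the list's median log2 fold change was 0.05. This count and that of each list below stand beside the 7.06% higher and 7.97% lower of all genes tested. Mafk, a small MAF protein that pairs with NRF2 on DNA and, as a homodimer or with BACH1, can also repress the same sites, read 27.1, 27.0 and 28.2 FPKM without and 36.9, 40.1 and 37.0 FPKM with Dox. It rose by 38.6%, with no overlap (log2 fold change 0.47, SE 0.0535, adjusted p = 0.00194). Its exons overlap Tmem184a on the other strand, and whether the counting used strand is not given in the sources used here. Nfe2l1, an NRF2 relative best known for proteasome genes, rose from 232 ± 11.0 to 280.1 ± 20.2 FPKM (log2 fold change 0.27, adjusted p = 0.0249), a call lost when Minus Dox 2, Minus Dox 3 or Plus Dox 3 was left out (adjusted p up to 0.0744). Prkcd, a kinase reported to act on NRF2, rose from 29.3 ± 0.864 to 34.1 ± 0.679 FPKM (adjusted p = 0.0258), and of the 6 omissions of 1 library the call held only without Minus Dox 1 (adjusted p up to 0.0875). Bach1, the repressor that competes with NRF2, is named here after its values were seen. It read 6.03, 5.98 and 6.5 FPKM without and 8.41, 7.28 and 9.44 FPKM with Dox. The groups did not overlap, but it did not pass (log2 fold change 0.43, SE 0.117, adjusted p = 0.0509). In the 6 omissions of 1 library it passed in 1 (adjusted p 0.0435 to 0.151). On this list all Plus Dox values were higher in 6 genes and lower in 3, beside 35.0% of all genes without overlap.

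Hmox1 (chr8:75093621-75100589, plus strand) encodes heme oxygenase 1, the inducible enzyme that opens heme to biliverdin, carbon monoxide and iron. It read 129, 116.7 and 126 FPKM in the Minus Dox libraries and 86.6, 86.0 and 89.4 FPKM in the Plus Dox libraries. All Plus Dox libraries were below all Minus Dox libraries, and within each group the spread was small. Hmox1 fell from 124 ± 6.51 to 87.3 ± 1.81 FPKM, a ratio of 0.704 (log2 fold change -0.50, SE 0.0469, 95% interval -0.61 to -0.39, adjusted p = 0.000801). The call held under all 15 alternatives, with log2 fold changes between -0.55 and -0.48 and adjusted p between 0.000611 and 0.0145. No other gene shares 10% or more of its transcript.

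Hmox1 did not move alone among the genes of heme and iron. Of 18 tested genes on that list of 20, 19 of which were analysed, 5 fell with Hmox1 counted among them, and the median log2 fold change was -0.11. Over all genes tested 7.97% fell. None rose by limma, with 3 higher at an unadjusted p under 0.05 and none higher by the unmoderated model. Fth1, the heavy chain of the iron store ferritin and one of the most abundant transcripts of these cells, read 5830, 5728 and 5786 FPKM without and 4371, 4575 and 4429 FPKM with Dox. It fell by 22.9% with no overlap (log2 fold change -0.38, SE 0.0223, adjusted p = 0.000141), and by 0.21 on the log2 scale after quantile normalization. Slc48a1, a carrier that brings heme into the cytosol, fell from 135 ± 2.26 to 115 ± 3.82 FPKM (log2 fold change -0.23, adjusted p = 0.00833), and its exons overlap Hdac7 on the other strand. Ftl1, the ferritin light chain, fell from 3651 ± 66.6 to 3392 ± 34.9 FPKM (log2 fold change -0.11, adjusted p = 0.0177), but this direction turned to 0.02 after quantile normalization, the call was lost without Minus Dox 1, Minus Dox 2, Plus Dox 1 or Plus Dox 3 (adjusted p up to 0.0873), and 94.0% of its transcript is shared with Ftl1-ps1. The ratio of Fth1 to Ftl1 was 1.58 ± 0.0331 without and 1.31 ± 0.0295 with Dox. Abcb6, a porphyrin carrier that shares 71.1% of its transcript with Gm29253, is the fifth (adjusted p = 0.0497), a call lost in each of the 6 omissions of 1 library (adjusted p 0.0820 to 0.135). Hmox2, the constitutive heme oxygenase, read 54.3, 51.8 and 50.1 FPKM without and 54.4, 58.7 and 62.8 FPKM with Dox, which did not pass (log2 fold change 0.17, adjusted p = 0.127), and 51.7% of its transcript is shared with Cdip1. Hmox2 was named after its values were seen.

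Nqo1 (chr8:107388225-107403206, minus strand), which encodes the quinone reductase commonly used as a readout of NRF2, was close to absent in these cells. It read 0.346, 0.189 and 0.0886 FPKM without Dox and 0.358, 0.389 and 0.208 FPKM with Dox, below the filter in both groups. The groups overlapped, and in the model without the filter the interval was wide (log2 fold change 0.50, SE 0.412, interval -0.50 to 1.5, adjusted p = 0.589), so a change of Nqo1 was not detectable at this level.

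Of 18 tested genes among 25 quinone and xenobiotic enzymes, 6 fell and none rose by limma, with none higher at an unadjusted p under 0.05 or by the unmoderated model, and the median log2 fold change was -0.07. Aldh2, the mitochondrial enzyme that clears acetaldehyde, read 862, 858 and 864 FPKM without and 665, 673 and 617 FPKM with Dox. It fell by 24.3% without overlap (log2 fold change -0.40, SE 0.0359, adjusted p = 0.000688). Aldh3a1, which oxidizes aldehydes from lipid peroxidation, read 26.6, 23.5 and 24.1 FPKM without and 13.1, 14.9 and 11.8 FPKM with Dox, and fell by 46.4% (log2 fold change -0.90, SE 0.0978, adjusted p = 0.00155). These were the 2 enzymes of the list with the smallest adjusted p. Akr1b8, an aldo-keto reductase sharing 18.4% of its transcript with Akr1b10, fell from 141 ± 7.32 to 112 ± 1.58 FPKM (adjusted p = 0.00367). Ptgr1, which reduces prostaglandins and unsaturated aldehydes, fell from 7.32 ± 0.745 to 4.90 ± 0.247 FPKM (adjusted p = 0.0177), a call lost without Minus Dox 1, Minus Dox 3, Plus Dox 2 or Plus Dox 3 (adjusted p up to 0.0676). Nqo2 and Ugt1a6a complete the list and were named after their values were seen. Nqo2, the other quinone reductase of the family, fell from 14.7 to 15.4 FPKM without Dox to 12.4 to 12.7 FPKM with Dox (adjusted p = 0.0282), a call lost in each of the 6 omissions (adjusted p 0.0582 to 0.0975). Of the Nqo2 transcript, 21.5% is shared with other genes. Ugt1a6a, a glucuronosyltransferase that shares 42.7% of its transcript with Ugt1a7c, read 4.54, 4.23 and 3.89 FPKM without and 3.02, 1.55 and 1.18 FPKM with Dox, just past the threshold (adjusted p = 0.0499, and 0.00930 to 0.138 over the omissions).

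**Figure D2:**
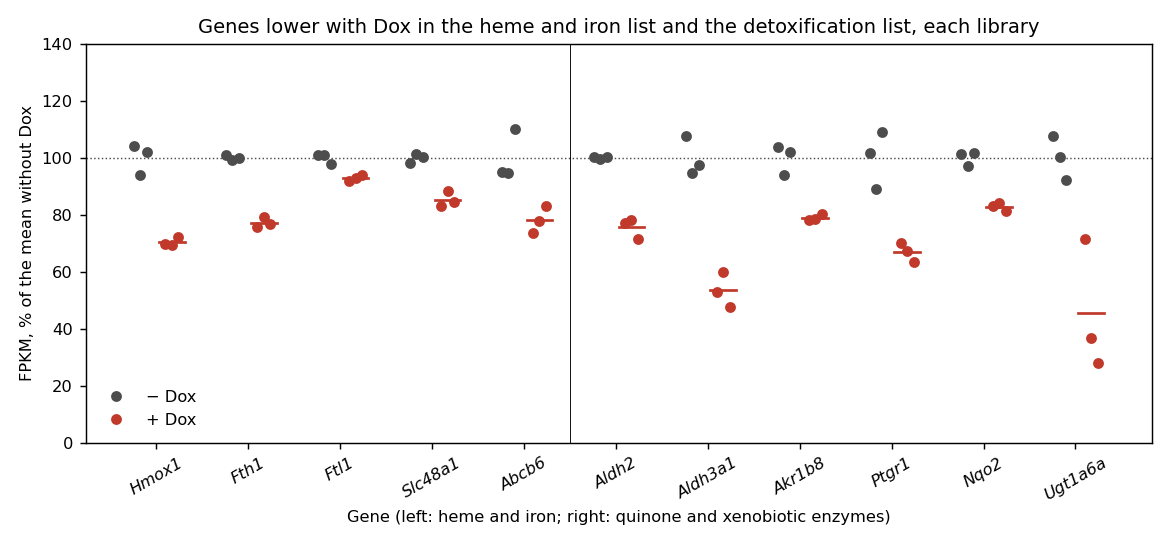
FPKM of the genes that were lower with Dox in the heme and iron list (left of the line) and in the quinone and xenobiotic list (right), each library drawn as a percent of that gene's mean without Dox, with a bar at the Plus Dox mean. Plus Dox libraries lay at 69.3 to 72.1% for Hmox1, 75.6 to 79.1% for Fth1, 71.7 to 78.2% for Aldh2 and 47.7 to 60.1% for Aldh3a1, and were most spread for Ugt1a6a, at 28.0 to 71.6%, and Ftl1 was not lower after quantile normalization.

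Glutathione depends on cystine uptake, on the glutamate cysteine ligase made of GCLC and GCLM, and on the reductase that recycles the oxidized form. None of these 4 genes passed the test, and they did not share a direction. Slc7a11 (chr3:49892526-50443614, minus strand), the transport subunit of the cystine and glutamate exchanger, read 6.42, 6.49 and 6.85 FPKM without and 8.56, 7.46 and 8.05 FPKM with Dox. The groups did not overlap, with a difference of 21.9% (log2 fold change 0.28, SE 0.0929, interval 0.06 to 0.50, adjusted p = 0.0932). It is the lowest of the tested members and holds one of the CAGTATT sites shown above. Its partner subunit Slc3a2, named after its values were seen, was far higher at 236, 246 and 241 FPKM without and 229, 233 and 228 FPKM with Dox (adjusted p = 0.187), and the ratio of Slc7a11 to Slc3a2 was 0.0273 ± 0.00106 without and 0.0349 ± 0.00265 with Dox.

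Gclc (chr9:77754535-77794485, plus strand), the catalytic subunit of the ligase, read 47.5, 46.7 and 47.3 FPKM without and 41.8, 43.4 and 44.0 FPKM with Dox. All Plus Dox values were lower, with a ratio of the means of 0.913, short of the threshold (log2 fold change -0.13, SE 0.0421, interval -0.23 to -0.03, adjusted p = 0.0853). Gclm (chr3:122245557-122270732, plus strand), the modifier subunit, whose exons overlap Gm6061 on the same strand and Gm17494 on the other, read 179.9, 169.8 and 164 FPKM without and 159, 149 and 173 FPKM with Dox. Its groups overlapped, since Plus Dox 3 lay above 2 of the Minus Dox libraries (log2 fold change -0.10, SE 0.0617, interval -0.24 to 0.05, adjusted p = 0.358). The transcript of the modifier was the more abundant, with a ratio of Gclc to Gclm of 0.276 ± 0.0119 without and 0.269 ± 0.0199 with Dox. Gsr (chr8:33652523-33698163, plus strand), glutathione reductase, read 35.2, 39.0 and 32.9 FPKM without and 51.4, 44.1 and 41.4 FPKM with Dox. The groups did not overlap, and this was the largest positive difference among the members tested, 27.8% (log2 fold change 0.35, SE 0.0964, interval 0.12 to 0.58). Its adjusted p was 0.0524, between 0.0447 and 0.163 over the 15 alternatives, and it passed in 1 of them, the minimum mean of 5 FPKM.

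**Figure D3:**
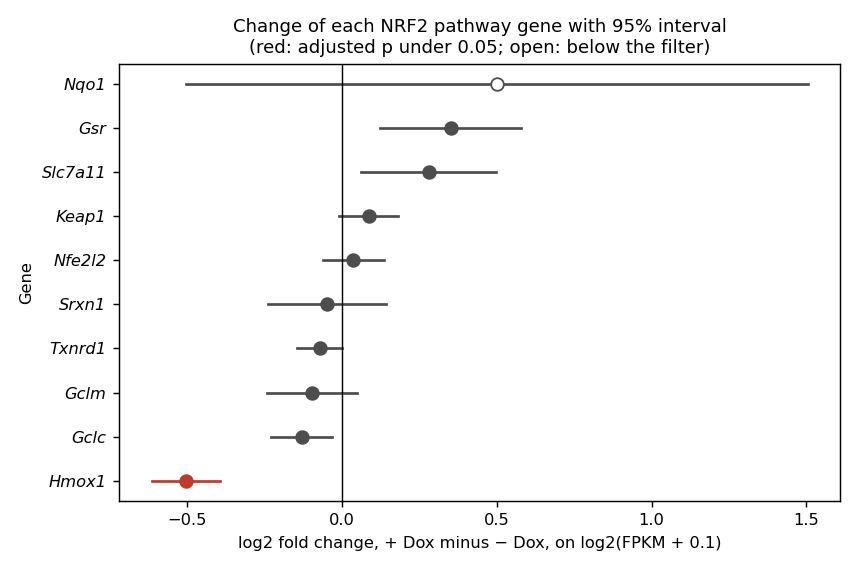
Log2 fold change with Dox on log2(FPKM + 0.1) for each of the 10 genes (points), with its 95% interval (lines) from limma on 3 libraries per group. Hmox1 (red) was the gene that passed, at -0.50. Without passing, Gsr and Slc7a11 had intervals above 0, and Gclc and Txnrd1 had intervals below 0. Nqo1 (open) is taken from the model without the filter.

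Among 14 tested genes of 18 for glutathione synthesis and transport, the 4 members included, 1 passed, lower with Dox, and the median log2 fold change was -0.11. By limma 0 rose, with 3 higher and 3 lower at an unadjusted p under 0.05, and the unmoderated model also called 0 higher and 1 lower. That gene, Ggt7, a member of the gamma-glutamyltransferase family whose exons overlap Acss2 on the other strand, read 4.77, 3.64 and 3.81 FPKM without and 1.43, 2.04 and 1.65 FPKM with Dox, and fell by 58.1% (log2 fold change -1.21, SE 0.203, adjusted p = 0.00928). Of 19 tested glutathione peroxidases, transferases and glutaredoxins of a list of 33, 5 fell and 0 rose by limma (1 higher at an unadjusted p under 0.05, 0 by the unmoderated model), with a median log2 fold change of -0.13. Gpx1, the selenoenzyme that reduces hydrogen peroxide with glutathione, read 957, 976 and 954 FPKM without and 784, 836 and 800.2 FPKM with Dox. It fell by 16.2% (log2 fold change -0.25, SE 0.0298, adjusted p = 0.00215) and was the one of the 5 that passed under all 15 alternatives. The transferases Gstm1 (9.89 ± 1.25 to 6.17 ± 1.07 FPKM, adjusted p = 0.0258), Gstm2 (4.59 ± 0.559 to 2.87 ± 0.0980 FPKM, adjusted p = 0.0246) and Gstp1 (196 ± 11.2 to 168 ± 5.07 FPKM, adjusted p = 0.0255) fell too, but each call was lost in 4 or 5 of the 6 omissions of 1 library, among them those of Minus Dox 1 and Plus Dox 3 for all of them, with adjusted p up to 0.0902, 0.0792 and 0.0900. Gstp1 shares 86.1% of its transcript with Gstp2, Gstm1 shares 51.0% with Gstm2-ps1 and Gstm2 19.6% with Gm6665, so their reads may be split between copies. Glrx, a glutaredoxin named after its values were seen, is the fifth (adjusted p = 0.0365, and up to 0.106 in the omissions).

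The 2 members of the thioredoxin system differed little between the groups. Txnrd1 (chr10:82833951-82897712, plus strand), thioredoxin reductase 1, which keeps thioredoxin reduced, read 198, 192 and 199.7 FPKM without and 188, 189 and 184 FPKM with Dox. All Plus Dox values were lower, at 0.951 of the Minus Dox mean (log2 fold change -0.07, SE 0.0303, interval -0.14 to -0.00168, adjusted p = 0.163). Srxn1 (chr2:152105516-152111376, plus strand), sulfiredoxin, which repairs overoxidized peroxiredoxins, read 58.3, 54.8 and 57.2 FPKM without and 55.6, 60.9 and 48.8 FPKM with Dox. The Plus Dox libraries held both the highest and the lowest value of the 6, and the sign of the log2 fold change, -0.05 (SE 0.0808, interval -0.24 to 0.14, adjusted p = 0.749), turned to 0.04 when Plus Dox 3 was left out.

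Around these members the 16 genes of the thioredoxin and peroxiredoxin list, all tested, split with 3 higher and 4 lower and a median log2 fold change of 0.00. Prdx6, a peroxiredoxin that works with glutathione, read 403, 397 and 384 FPKM without and 459.8, 483 and 459.6 FPKM with Dox, and rose by 18.5% (log2 fold change 0.25, SE 0.0326, adjusted p = 0.00375). Txnip, which binds and inhibits thioredoxin, read 14.1, 13.6 and 15.5 FPKM without and 8.43, 8.44 and 10.00 FPKM with Dox, and fell by 37.9% (log2 fold change -0.68, SE 0.0976, adjusted p = 0.00496), with 21.7% of its transcript shared with Gm15441 on the other strand. The sestrins, stress proteins that restrain mTORC1, are on the list for their proposed role in peroxiredoxin repair. Sesn1 fell from 11.1 ± 0.760 to 7.08 ± 0.316 FPKM (log2 fold change -0.64, adjusted p = 0.00402). Sesn3 fell from 29.5 ± 2.12 to 21.7 ± 1.93 FPKM (log2 fold change -0.44, adjusted p = 0.0154), the latter lost without Plus Dox 2 or Plus Dox 3 (adjusted p up to 0.0554). The other genes that passed, named after their values were seen, were Txn1 and Txnrd3, which were higher, and Prdx2, which was lower. Txn1 shares 29.3% of its transcript with Txn-ps1, and Prdx2 shares 57.5% with other genes. Of the 6 omissions of 1 library the call of Txn1 held in 1 (adjusted p up to 0.102), that of Txnrd3 in 0 (0.0650 to 0.111) and that of Prdx2 in 2 (up to 0.0690).

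NADPH, which GSR, TXNRD1 and NQO1 all spend, is made by enzymes of which NRF2 is known to regulate several. Of 18 tested genes of 19 on this list, 2 rose and 2 fell, and the median log2 fold change was 0.04. Rpia, the ribose-5-phosphate isomerase of the branch of the pentose phosphate pathway that makes no NADPH itself, read 22.2, 19.5 and 21.8 FPKM without and 54.6, 52.3 and 53.5 FPKM with Dox. This 2.52-fold rise was the largest on any of the lists (log2 fold change 1.33, SE 0.0620, adjusted p = 5.03e-05), and 14.4% of its transcript is shared with other genes. Mthfd2, a mitochondrial folate enzyme, rose from 111 ± 1.12 to 133 ± 2.28 FPKM (log2 fold change 0.27, adjusted p = 0.00235). Idh1, the cytosolic isocitrate dehydrogenase that makes NADPH, read 49.1, 49.1 and 46.5 FPKM without and 32.8, 29.5 and 38.0 FPKM with Dox, and fell by 30.7% (log2 fold change -0.53, SE 0.0910, adjusted p = 0.00976, and 0.0643 in the unmoderated model). Taldo1, transaldolase, fell from 223 ± 9.46 to 199 ± 3.86 FPKM (adjusted p = 0.0342), a call that held only without Minus Dox 2 among the 6 omissions (adjusted p up to 0.101). The other 14 did not pass, among them G6pdx and Me1, named after their values were seen. G6pdx was at 183 ± 3.97 FPKM without and 182 ± 4.36 FPKM with Dox (adjusted p = 0.958). Me1, which shares 60.1% of its transcript with other genes, was at 42.0 ± 3.09 and 43.3 ± 1.88 FPKM (adjusted p = 0.690).

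Of 11 tested superoxide and hydrogen peroxide enzymes of 16, 2 rose and 1 fell, with a median log2 fold change of -0.05. Sod1, the cytosolic superoxide dismutase, rose from 214 ± 3.46 to 239 ± 11.4 FPKM (adjusted p = 0.0453). The extracellular Sod3 rose from 84.1 ± 2.44 to 94.0 ± 0.581 FPKM (adjusted p = 0.0286). Msrb1, a methionine sulfoxide reductase and selenoprotein, fell from 73.4 ± 7.19 to 56.6 ± 4.03 FPKM (adjusted p = 0.0269). These are small effects on few libraries. Sod1 was lost in each of the 6 omissions of 1 library (adjusted p up to 0.121), Sod3 in all but that of Minus Dox 1 (up to 0.0950), and Msrb1 without Minus Dox 1, Minus Dox 2, Plus Dox 1 or Plus Dox 3 (up to 0.0854). Among the 10 genes listed for selenoprotein synthesis, which TXNRD1 and GPX1 need, 1 rose and 1 fell, with a median log2 fold change of -0.05. Sephs2, which makes the selenium donor, read 91.0, 82.6 and 84.0 FPKM without and 111, 109 and 109 FPKM with Dox, and rose by 27.8% (log2 fold change 0.36, SE 0.0452, adjusted p = 0.00314), with 36.4% of its transcript shared with Gm44729. Selenbp1, a selenium-binding protein that is no part of the synthesis itself, fell from 5.59 ± 1.32 to 2.24 ± 0.298 FPKM (adjusted p = 0.00872, and 0.0534 in the unmoderated model), and its whole transcript is shared with Selenbp2.

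**Figure D4:**
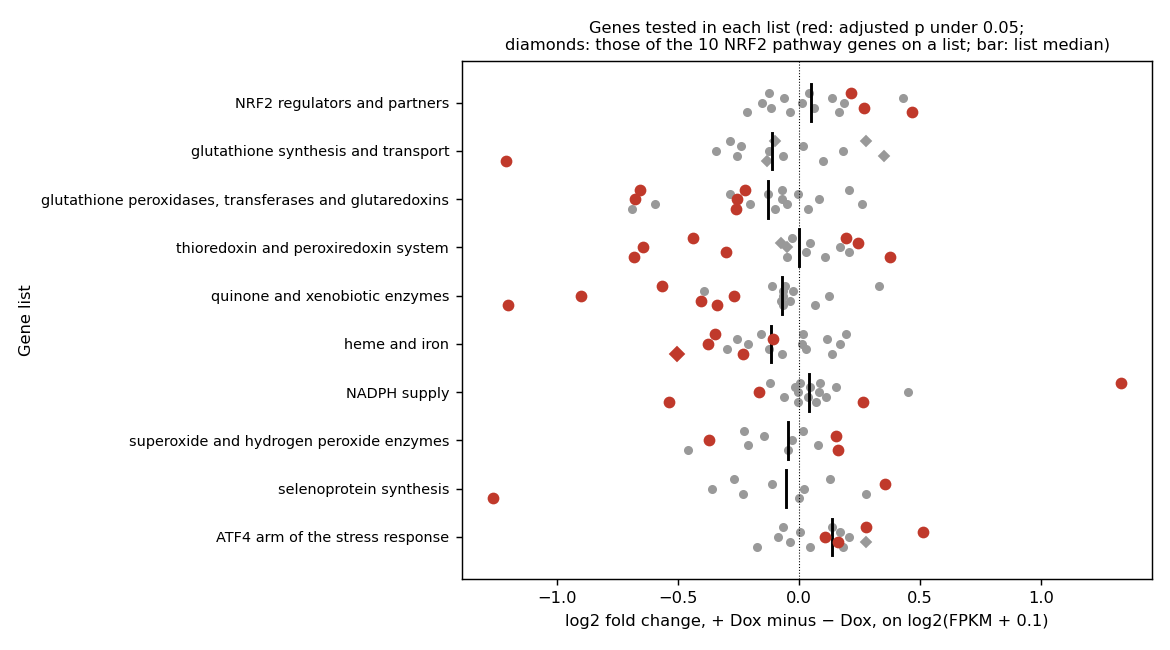
Log2 fold change with Dox of every tested gene on each of 10 lists around the NRF2 pathway genes (points, one row per list), red where the adjusted p was under 0.05, with diamonds for those of the 10 NRF2 pathway genes on a list and a bar at the list's median. List medians lay between -0.13 and 0.14. In 4 lists the genes that passed were all lower. These were glutathione synthesis and transport (1 gene), glutathione peroxidases, transferases and glutaredoxins, quinone and xenobiotic enzymes, and heme and iron. Of them, Ftl1 turned to 0.02 after quantile normalization. All that passed were higher among the NRF2 regulators and partners (3 genes) and in the ATF4 arm of the stress response (4 genes). Of all genes tested, 7.06% were higher and 7.97% lower.

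Over the 9 lists drawn up around the NRF2 pathway, 133 genes outside the members were tested, with a median log2 fold change of -0.05. Of them 11 rose and 24 fell, that is 8.27% and 18.0% beside the 7.06% and 7.97% of all genes. Of these 35, 26 moved by less than 1.5-fold, and 14 (5 higher, 9 lower) passed under all 15 alternatives. The lists were chosen with earlier results of these data known, so these shares describe the lists and are not independent of the data. Whether each listed gene depends on NRF2 was not tested. The counts rest on the full set of libraries: 5 rose when either Minus Dox 2 or Plus Dox 3 was left out, and 7 without either Minus Dox 3 or Plus Dox 2, while 12 fell without either Minus Dox 1 or Plus Dox 3, and 15 without Plus Dox 2.

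Slc7a11 is also a target of ATF4, the factor of the amino acid and unfolded protein response. On a list of 16 genes of that arm, 15 were tested, 4 rose and none fell by limma (1 lower at an unadjusted p under 0.05, none by the unmoderated model), with a median log2 fold change of 0.14. Atf4 itself read 343, 335 and 346 FPKM without and 379, 381 and 384 FPKM with Dox, a rise of 11.7% with no overlap (log2 fold change 0.16, SE 0.0260, adjusted p = 0.00829, and 0.0542 in limma without the trend). Ppp1r15a, which brings the phosphatase back to eIF2α, rose from 21.8 ± 0.852 to 31.3 ± 4.49 FPKM (log2 fold change 0.51, adjusted p = 0.0165), lost without Minus Dox 1 or Minus Dox 2 (adjusted p up to 0.0544). Trib3, a pseudokinase induced by ATF4, rose from 44.2 ± 2.93 to 53.5 ± 0.589 FPKM (adjusted p = 0.0179), a call lost without Minus Dox 3 or any one Plus Dox library (adjusted p up to 0.0641). Asns, asparagine synthetase, rose from 254 ± 3.56 to 275 ± 2.46 FPKM (adjusted p = 0.0351), and was lost in each of the 6 omissions (adjusted p up to 0.107). Ddit3, named after its values were seen, went the other way, at 68.6 ± 1.59 FPKM without and 61.0 ± 3.23 FPKM with Dox. Its groups did not overlap, but it did not pass (log2 fold change -0.17, adjusted p = 0.0629). Of its transcript, 10.8% is shared with another entry named Ddit3. On this list all Plus Dox values were higher in 9 genes and lower in 2, beside 35.0% of all genes without overlap. The part of ATF4 in the Slc7a11 difference was not tested.

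Across the 6 libraries, the genes of the table most like Hmox1 in log2(FPKM + 0.1) were Slc25a23, a mitochondrial carrier (Pearson r = 0.999), Gdf11, a TGF-beta family ligand (r = 0.998), and Prc1, a cytokinesis protein (r = 0.998). They fell from 50.6 ± 1.10 to 43.9 ± 0.488, from 73.3 ± 3.93 to 52.8 ± 0.517 and from 215 ± 2.76 to 197 ± 0.388 FPKM (adjusted p = 0.0171, 0.00127 and 0.0241), although the call of Slc25a23 held only without Minus Dox 2 among the 6 omissions and that of Prc1 in none of them. Most like Gsr were Srrm1 (r = 0.996), Cnot3 (r = 0.993) and Fastkd3 (r = 0.989), none of which passed. Such correlations describe 6 libraries in 2 groups: 998 of 12874 genes had r above 0.9 with Hmox1, and 200 with Gsr. The 3 genes most like Hmox1 were picked over these same libraries. Their fall and adjusted p-values largely follow from that choice and are no separate result.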

How the data were processed

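The 6 mRNA libraries (3 Minus Dox, 3 Plus Dox) were grouped by their labels. The authors made single 50-base reads from stranded libraries, mapped them with gSNAP and estimated FPKM with Cufflinks (GRCm38.p6 and an FVB/NJ assembly are named), and they deposited FPKM per gene and library. The deposited p-values, q-values, fold scores and group means were not used. FPKM removes depth, so read counts are unknown and no counting interval is given.

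Of 43611 rows, 63 repeats of an identifier were dropped, keeping the highest mean, and 6 placeholder cells in 4 genes were treated as missing. The 12879 genes whose mean reached 1 FPKM entered limma 3.58.1 (R 4.3.3) as log2(FPKM + 0.1) (lmFit, eBayes with a trend, group as the only term, Benjamini-Hochberg over all genes tested, threshold 0.05). Fold changes on this scale understate those of low genes. Nqo1 and Cdh1 were read from the same model without the filter. The study names an ANOVA per gene without its scale, and an unmoderated linear model per gene on log2(FPKM + 1), a scale chosen here, was run as an alternative. With 3 libraries against 3 a permutation test cannot give a p below 0.1. The model was tested on simulated data. The members and lists were chosen with earlier results of these data known. Named are the 10 members, Zeb1, Zeb2 and Cdh1, the genes of each list that passed (at most the 4 with the smallest adjusted p), and the 3 genes most correlated with the member of smallest adjusted p in each direction, with exceptions stated where they occur. Replicate numbers are shared by the groups, and samples with the same number did not deviate together, so no block was used.

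Positions and 3′ UTRs are from GENCODE M21 (GRCm38), promoters and miRNAs from RefSeq (GRCm38.p6). Transcripts were compared with BLAST 2.17.0 (alignments of 50 bases or more at 95% identity or more), and a gene is marked where 10% or more of its longest transcript is shared. The 15 alternatives were quantile normalization, median scaling, pseudocounts of 0.01 and 1, a filter at 5 FPKM or none, no trend in limma, the unmoderated model, the replicate block, and leaving out every library once. Counts and plots were made in Python 3.11.15 (pandas 2.3.3, numpy 2.4.6, matplotlib 3.10.9).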

Additional observations from a re-analysis of the deposited data

How the results depend on the processing

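Hmox1 stayed lower and past the threshold under all 15 alternatives. Among the members, higher calls numbered 1 with the minimum mean of 5 FPKM, which added Gsr, and the log2 fold change of Srxn1 ranged from -0.12 without Plus Dox replicate 2 to 0.0371 without Plus Dox replicate 3. The log2 fold change of Ftl1 turned to 0.0179 after quantile normalization. Of the genes on the 9 NRF2 lists, 11 were higher, and this count was 7 without the filter, 7 without the trend and 5 to 9 when 1 library was left out. Of these genes 24 were lower, and this count was 13 in the unmoderated model and 12 to 17 when 1 library was left out. Over all genes 1935 passed, and 1048 to 1359 did when 1 library was left out, where fewer libraries enter the test. With a median shift between scalings of under 0.1, the share of lower calls moved from 53.0% to 54.3% after quantile normalization and to 52.1% after scaling to the same median. For replicates with the same number, the correlations of deviations from the group means were 0.0287, 0.0359 and -0.00759, so the numbers were not taken as pairs. With the replicate number as a block 1337 genes passed, 1269 of them also without it, among them Hmox1 (adjusted p = 0.00475), with 0 members higher and 1 lower, while 8 of the NRF2 list genes were higher and 18 lower. The read count behind each FPKM is unknown, which limits the low genes most, Nqo1 above all.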
